A study of Malus domestica with 18 samples.

Results

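Lignin and many other phenolic compounds of plants are made from phenylalanine along 1 trunk of enzymes, the phenylpropanoid pathway, and the genes named for that trunk and for its lignin branch were followed here through an apple shoot culture experiment. The group was defined by protein name alone: a gene belonged to it if the Swiss-Prot name in its annotation held the words for an enzyme of these steps, among them phenylalanine ammonia-lyase, trans-cinnamate 4-monooxygenase, 4-coumarate--CoA ligase, cinnamoyl-CoA reductase, cinnamyl alcohol dehydrogenase, hydroxycinnamoyltransferase, a caffeoyl enzyme, a laccase and a dirigent protein. The rule found 180 of the 42841 genes in the count table, under 51 different protein names. No measured value entered the rule. Of the 180 genes, 102 lay in 41 runs of members within 5 gene positions of each other, and reads of such close copies may be split between them.

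Phenylalanine ammonia-lyase (PAL) removes ammonia from phenylalanine to give cinnamic acid, trans-cinnamate 4-monooxygenase (C4H) adds a hydroxyl group, and 4-coumarate--CoA ligase (4CL) activates the product as a CoA ester that both lignin and flavonoids draw on. Shikimate O-hydroxycinnamoyltransferase (HCT), caffeoylshikimate esterase (CSE) and caffeoyl-CoA O-methyltransferase (CCoAOMT) act in the modification of the ring, and cinnamoyl-CoA reductase (CCR) and cinnamyl alcohol dehydrogenase (CAD) reduce the side chain to the lignin alcohols. Laccases oxidise these alcohols in the cell wall so that they polymerise, and dirigent proteins steer the coupling of the same radicals, best known from lignans. In shoots lignin is laid down mainly in the walls of xylem vessels and fibres.

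The explants were 20-mm shoot pieces of the apple cultivar Húsvéti rozmaring, cut from 4-week-old in vitro shoots whose last subculture had no cytokinin. They were set on medium without cytokinin (control), with 4.5 µM thidiazuron (TDZ, a synthetic phenylurea cytokinin) or with 4.5 µM 6-benzylaminopurine riboside (BAR, an adenine cytokinin carrying a ribose), and every medium, the control included, also held 0.49 µM indole butyric acid, an auxin, and 0.58 µM gibberellic acid. Poly(A) RNA of the shoots was sequenced after 48 hour and 4 week, with 3 libraries in each of the 6 groups and 12546489 to 21279097 counts per library. Biological replicates are what the labels call the libraries, with no word on separate vessels, so the tests measure the spread between these libraries. Further, because whole shoots were sampled, fewer cells of a type and less RNA per cell cannot be told apart.

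The library labelled TDZ, 4 week, replicate 3 stood apart from the other libraries of its group. Over the 108 members with enough counts to be tested, its levels ranked like those of the 4 week controls, with a Spearman rho of 0.954, 0.936 and 0.932, and less like those of TDZ replicates 1 and 2, with a rho of 0.761 and 0.707. For 80 of the 108 members its log2 level lay nearer to the control mean than to the mean of TDZ replicates 1 and 2. It is 1 of 4 libraries, all numbered replicate 3, whose names end in a letter b that the labels do not explain. Each such name is that of replicate 1 of the same group with the b added. Whether replicate 3 in those groups is independent of replicate 1 is not stated. Because TDZ, 4 week, replicate 3 stood apart, counts over all members at 4 weeks that involve TDZ are given with all 3 libraries and again without it. So are the counts by role and the genes described below whose calls changed when it was left out. The tissue label, axillary shoot, was checked with marker genes: the summed level of the leaf mesophyll list, 34 genes, was 10046 to 25852 counts scaled per library to CPM (normalised read counts, as used below) in the 4 week controls, 4873 to 8143 with TDZ and 11206 to 16927 with BAR, while 5 of the 8 root endodermis genes had no count in any library.

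**Figure D1:**
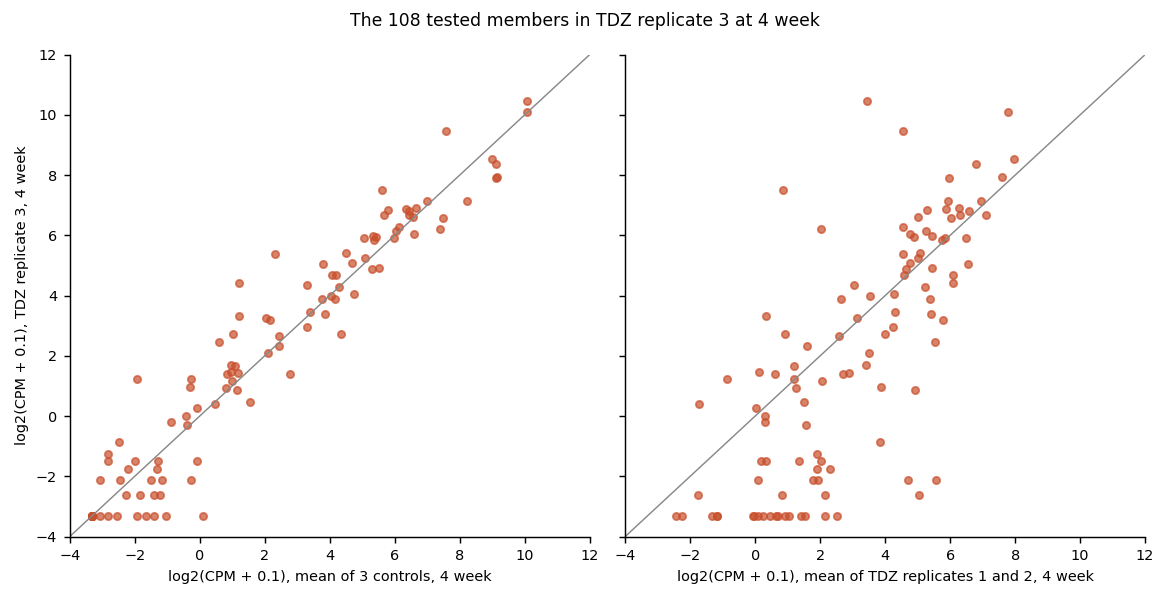
Each point is 1 of the 108 tested members, plotted by its log2(CPM + 0.1) in the library labelled TDZ, 4 week, replicate 3 against the mean of the 4 week controls and against the mean of TDZ replicates 1 and 2. The points lie closer to the line of equal levels in the comparison with the controls, and 80 of the 108 members are nearer to the control mean.

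Levels per gene length, as the deposited FPKM (fragments per kilobase of gene, scaled to library size), place the trunk enzymes above the laccases, at 219 ± 81.6 FPKM in the 4 week controls, and the dirigent genes, at 30.2 ± 2.17. Summed over their genes, the PAL genes stood at 870.2 ± 163 FPKM in the 4 week controls, 463 ± 233 with TDZ and 261 ± 62.5 with BAR (mean ± SD, n = 3 here and in the sums below). The C4H genes stood at 531 ± 159, 264 ± 102 and 101 ± 40.7 FPKM in the same order, and the 4CL genes at 519 ± 49.7, 189 ± 78 and 56.2 ± 19.7 FPKM. The mean of all 3 steps was lowest with BAR; for C4H and 4CL every BAR library lay below every TDZ library, while for PAL the TDZ and BAR libraries overlapped. The summed CCoAOMT level had another order, 104 ± 62.4 FPKM in the controls, 250.2 ± 66.2 with TDZ and 69.4 ± 14.4 with BAR. Without TDZ replicate 3, the TDZ means were 330 FPKM for PAL, 215 for C4H, 147 for 4CL and 288 for CCoAOMT. At 48 hours the summed levels of PAL, 495 ± 82.6 FPKM in the controls, 411 ± 238 with TDZ and 434 ± 54 with BAR, overlapped between the groups. The summed CCR level rests in part on DVH24_041686, whose gene model is 225 bases long and so turns few reads into a high FPKM.

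**Figure D2:**
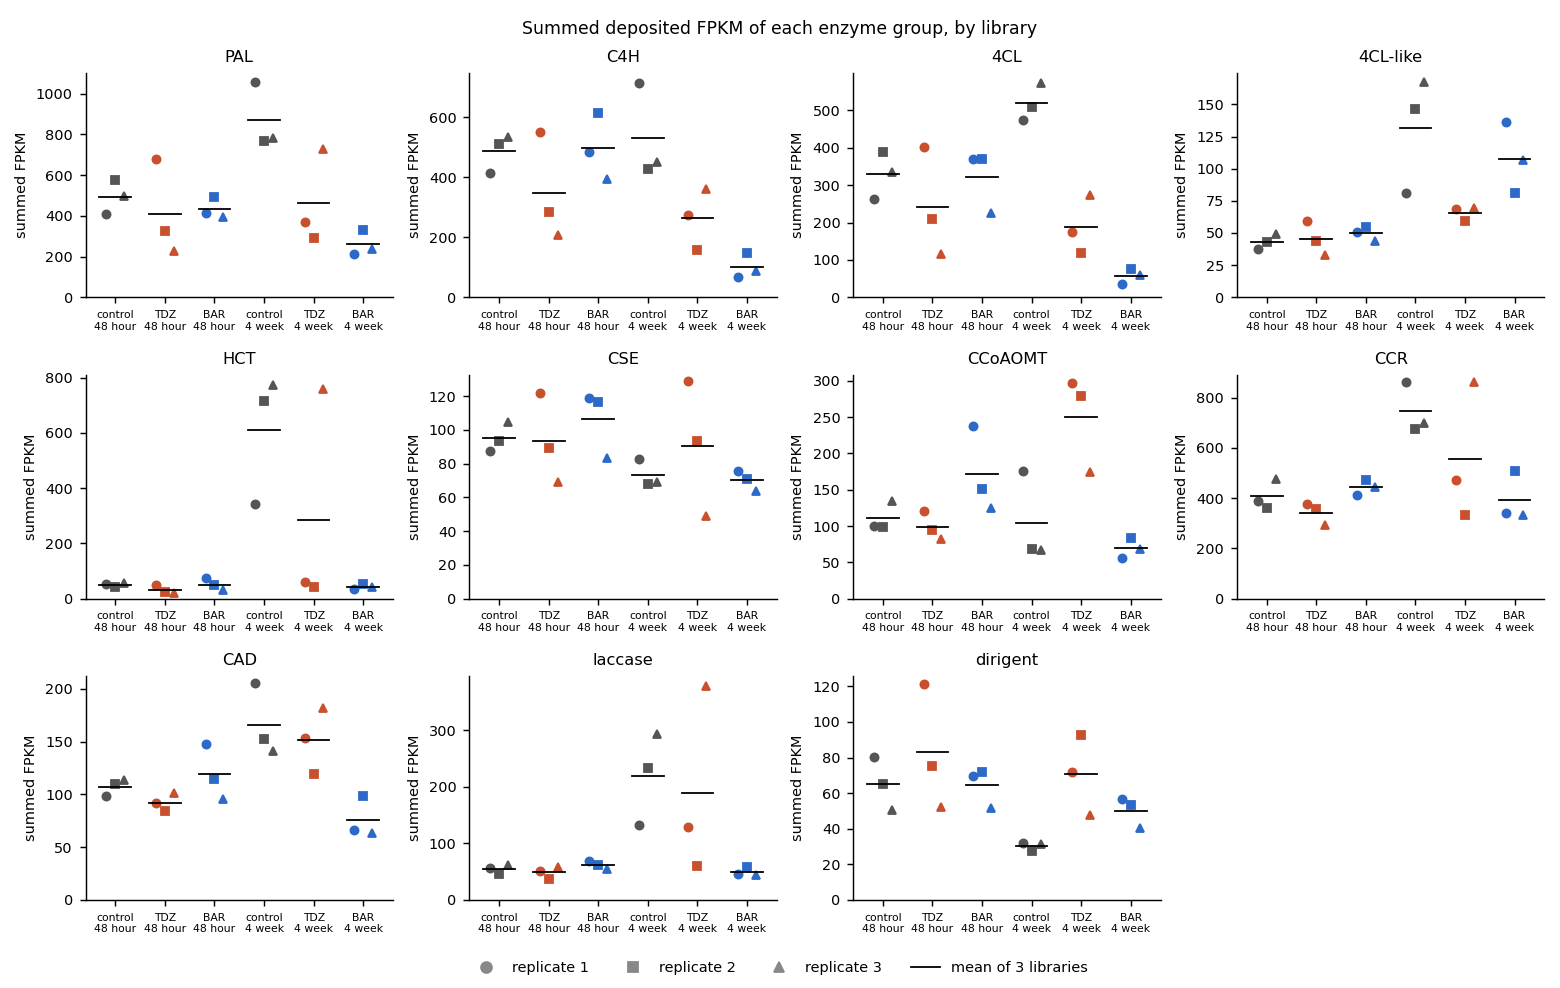
Summed FPKM of the members of each of 11 roles, 1 panel per role with its own linear axis, with 1 point per library and a bar at the mean of the 3 libraries of each group. The means of PAL, C4H and 4CL are lowest in the BAR group of 4 weeks, and the summed HCT level of the library labelled TDZ, 4 week, replicate 3 sits with the controls.

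Not every member could be tested. Counts were high enough for 108 of the 180 genes, among them 6 of 7 PAL, 4 of 10 C4H, 4 of 6 4CL, 7 of 11 4CL-like, 4 of 10 HCT, 6 of 7 CSE, 5 of 6 CCoAOMT, 10 of 12 CCR, 7 of 9 CAD, 32 of 48 laccase and 12 of 27 dirigent genes. Among the 72 others, 34 had no count in any library and the highest level was 2.53 CPM, of the laccase-7 gene DVH24_025308 in TDZ, 4 week, replicate 1. A gene that is high in 1 group only passes such a filter through that group, and 10 of the tested members (7 laccases and 3 dirigent genes) had no count in any 4 week control.

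After 48 hours no member passed the test between the media. In edgeR's quasi-likelihood test, with Benjamini-Hochberg adjustment over 26053 genes and a call at an adjusted p under 0.05, 0 of 108 members were called between TDZ and control, between BAR and control and between TDZ and BAR, and 0% of all genes were called in each comparison. At an unadjusted p under 0.05 there were 13, 5 and 13 members in that order, beside 1439, 693 and 1970 of all genes. DESeq2 called 2, 0 and 1 members. The share of all genes that DESeq2 called is not given here, so these counts do not set the members apart. The median log2 fold change of the members was -0.16, 0.23 and -0.38, beside 0.01, 0.00 and 0.01 for all genes. The smallest p in the comparison of TDZ with control belonged to the C4H gene DVH24_038339, with 0.645, 0.132 and 1.61 CPM in the controls, no count in any TDZ library and 0.422, 0.878 and 0.884 CPM with BAR (adjusted p = 0.48 in edgeR's quasi-likelihood test). DESeq2 called this gene lower with TDZ than with control and than with BAR. The CAD gene DVH24_021712, at 48.4, 49.6 and 61 CPM in the controls, 32.5, 27.2 and 27.4 CPM with TDZ and 94.3, 58.8 and 40.6 CPM with BAR, had TDZ libraries below all others, with log2 fold change -1.15 ± 0.32 (SE), adjusted p = 0.42 between TDZ and BAR, which is not a call. The CCR gene DVH24_031177 was similar, at 13.5, 15.4 and 11.3 CPM with TDZ beside 62.3, 36.8 and 22.7 CPM with BAR, and was not called either. Between BAR and control, the smallest unadjusted p was 0.0079 in edgeR's quasi-likelihood test, for the 4CL-like gene DVH24_019384. Its log2 fold change was 1.57 ± 0.52 (SE), higher with BAR and not called.

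After 4 weeks the media differed, and the 2 cytokinins differed from each other. With TDZ, 31 members were higher and 7 lower than in the controls, 28.7% and 6.48% of the 108, beside 16.8% and 9.72% of all genes. With BAR, 17 members were higher and 28 lower, 15.7% and 25.9%, beside 17.2% and 12.7% of all genes. Between the cytokinins, 27 members were higher with TDZ and 1 was lower, 25.0% and 0.926%, beside 4.42% and 3.98% of all genes. The median log2 fold change of the members was 0.78 for TDZ against control, 0.02 for BAR against control and 1.24 for TDZ against BAR, beside 0.14, 0.14 and 0.04 over all genes. The first 2 comparisons share the control libraries. Of the 24 members that were the 2 most abundant of their role by FPKM, 4 were higher and 5 lower with TDZ than in the controls, 1 was higher and 12 lower with BAR, and 7 were higher with TDZ than with BAR. When the library labelled TDZ, 4 week, replicate 3 was left out, calls against control were 43 higher and 16 lower of 114 tested members, beside 23.0% and 17.9% of all genes, and those against BAR were 34 higher and 2 lower, beside 8.47% and 6.97%. When the 4 week libraries were fitted alone, 95 members passed the filter. The 38 calls of TDZ against control came to 4, which were 1 each of CSE, CCoAOMT, CCR and CAD. In that fit the 45 of BAR against control came to 27, of which 7 were higher and 20 lower. The 28 of TDZ against BAR came to 2. Without control replicate 2 the 38 came to 14, and without BAR replicate 1 the 45 came to 28 and the 28 came to 2. The shares of all genes called in the 4 week fit and in these leave-outs are not given here. The drops therefore do not set the members apart.

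**Figure D3:**
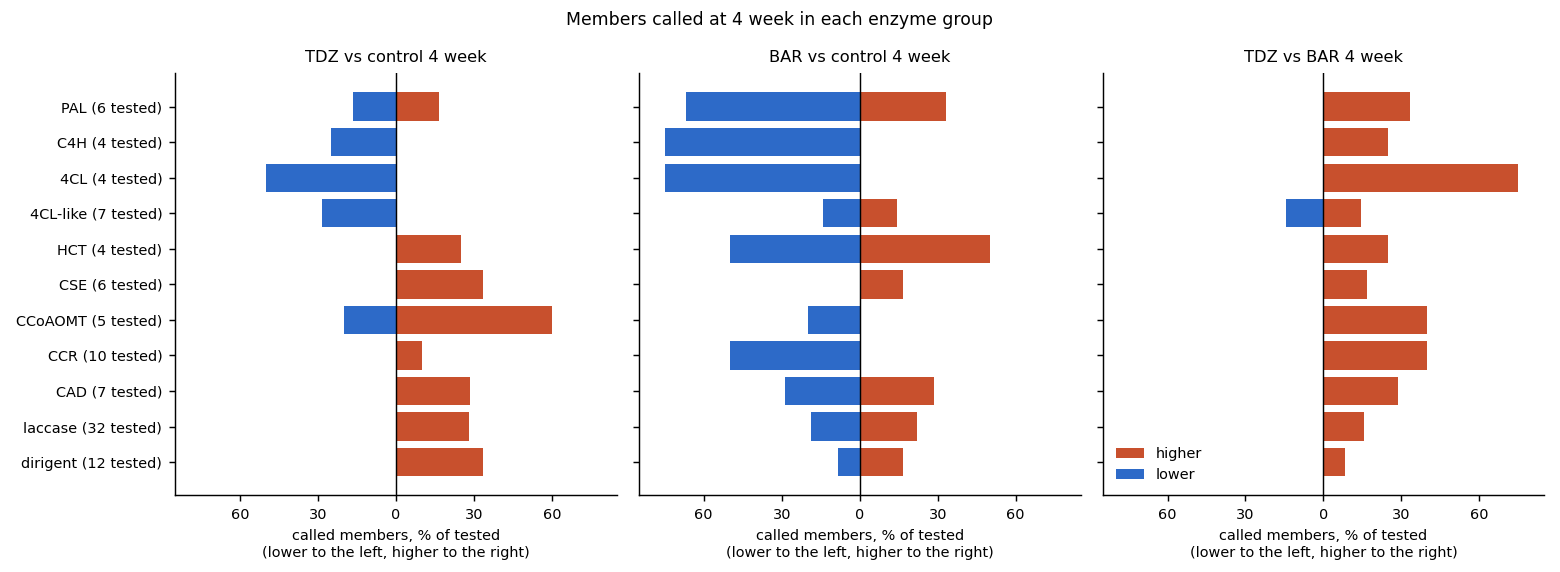
Called members in each of 11 roles as a percentage of the tested members of that role, higher to the right and lower to the left, for TDZ against control, BAR against control and TDZ against BAR at 4 weeks. With BAR, 3 of 4 C4H and 3 of 4 4CL genes are lower than in the controls, beside 12.7% of all genes. With TDZ 3 of 5 CCoAOMT genes are higher, beside 16.8% of all genes.

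The first enzyme of the pathway was lower with BAR. Of 6 tested PAL genes, 4 fell and 2 rose with BAR, beside 12.7% and 17.2% of all genes. The most abundant, DVH24_004645, stood at 1087, 1038 and 1076 CPM in the controls, 221, 216 and 1093 CPM with TDZ and 109.7, 240.4 and 147 CPM with BAR. The BAR libraries and TDZ replicates 1 and 2 lay far below the controls, and TDZ replicate 3 lay just above the highest control. The fall with BAR had log2 fold change -2.69 ± 0.60 (SE), adjusted p = 0.0045. With TDZ the difference from control was not called, log2 fold change -1.06 ± 0.57 (SE), adjusted p = 0.18, and without replicate 3 it was, log2 fold change -2.29 ± 0.47 (SE), adjusted p = 0.0011. This gene made up 46.4% to 63.4% of the summed PAL FPKM in the 4 week controls and 22.3% to 31.7% with BAR.

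DVH24_001494, the other abundant PAL gene, was at 916, 405 and 392 CPM in the controls, 234, 149 and 246 CPM with TDZ and 196, 315 and 203 CPM with BAR, and fell with both cytokinins, log2 fold change -1.44 ± 0.45 (SE), adjusted p = 0.027 for TDZ and log2 fold change -1.26 ± 0.45 (SE), adjusted p = 0.042 for BAR. A further pair separated the cytokinins. DVH24_023938 stood at 155, 69.7 and 79.8 CPM in the controls, 98.2, 56.1 and 119.8 CPM with TDZ and 12.6, 29.3 and 24.1 CPM with BAR, so that the BAR libraries lay below all others while TDZ and control overlapped. It was higher with TDZ than with BAR, log2 fold change 2.05 ± 0.36 (SE), adjusted p = 0.0061, and DVH24_005247 behaved alike, log2 fold change 1.92 ± 0.36 (SE), adjusted p = 0.0083. The neighbours DVH24_038885 and DVH24_038886, with gene models of 1140 and 699 bases where the other tested PAL genes have 2163 to 2337, went the other way: DVH24_038886 was at 15.9, 20.8 and 21.1 CPM in the controls and 38.5, 33.7 and 34.4 CPM with BAR, log2 fold change 0.88 ± 0.25 (SE), adjusted p = 0.017. With TDZ, DVH24_038886 also rose, log2 fold change 0.71 ± 0.25 (SE), adjusted p = 0.047. Several of these calls were near the threshold. That of DVH24_001494 was lost without control replicate 1, TDZ replicate 1 or TDZ replicate 2 for TDZ, at adjusted p values of 0.069 to 0.12, and without any 1 of 10 libraries for BAR, among them control replicate 1, where the adjusted p was 0.2. Without BAR replicate 1 the adjusted p was 0.057 for DVH24_005247 between TDZ and BAR and 0.057 for DVH24_038886 between BAR and control.

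The next steps of the trunk were also lower with BAR, 3 of 4 C4H and 3 of 4 4CL genes, beside 12.7% of all genes. The main C4H gene DVH24_041770 was at 782, 352 and 389 CPM in the controls, 306, 189 and 372 CPM with TDZ and 70.0, 177 and 109 CPM with BAR, with every BAR library below every control, log2 fold change -2.10 ± 0.43 (SE), adjusted p = 0.003. With TDZ the difference was not called, log2 fold change -0.81 ± 0.41 (SE), adjusted p = 0.16. Its relative DVH24_038336 was at 569, 555 and 553 CPM in the controls, 144, 79.7 and 333 CPM with TDZ and 77.9, 109 and 53.5 CPM with BAR. It fell with both, log2 fold change -1.59 ± 0.47 (SE), adjusted p = 0.022 for TDZ and log2 fold change -2.80 ± 0.49 (SE), adjusted p = 0.0013 for BAR. That call with TDZ was lost without control replicate 2 or 3 or TDZ replicate 1 or 2, at adjusted p values of 0.053 to 0.093, and without TDZ replicate 3 it was log2 fold change -2.32 ± 0.45 (SE), adjusted p = 0.00064. The low C4H gene DVH24_038338 was higher with TDZ than with BAR, log2 fold change 4.93 ± 0.78 (SE), adjusted p = 0.0042, with 36, 11.4 and 25.7 CPM with TDZ and 0.35, 1.33 and 0.698 CPM with BAR.

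Among the 4CL genes, DVH24_022284 was at 324, 269 and 303 CPM in the 4 week controls, 147, 97.1 and 140.2 CPM with TDZ and 20.7, 44.9 and 29.3 CPM with BAR. The 3 groups did not overlap, with the controls highest and BAR lowest. The gene fell with BAR, log2 fold change -3.24 ± 0.45 (SE), adjusted p = 0.00044, and with TDZ, log2 fold change -1.22 ± 0.42 (SE), adjusted p = 0.043, and was higher with TDZ than with BAR, log2 fold change 2.02 ± 0.43 (SE), adjusted p = 0.013. Its call between TDZ and control was lost without any 1 of 11 libraries, each 4 week control and TDZ replicates 1 and 2 among them, at adjusted p values of 0.051 to 0.16, and that between TDZ and BAR without BAR replicate 1 or 3, at 0.067 to 0.09. DVH24_025057 stood at 374, 600.0 and 683 CPM in the controls, 70.3, 53.3 and 238 CPM with TDZ and 36.6, 72.5 and 59.2 CPM with BAR. It fell with both, log2 fold change -2.19 ± 0.53 (SE), adjusted p = 0.0081 for TDZ (log2 fold change -3.16 ± 0.47 (SE), adjusted p = 7.1e-05 without replicate 3) and log2 fold change -3.30 ± 0.55 (SE), adjusted p = 0.001 for BAR. The genes named 4CL-like, relatives whose substrates in apple the annotation does not give, moved unevenly: DVH24_041015 rose with BAR, from 7.15, 2.79 and 2.54 CPM to 43.7, 17.7 and 35.6 CPM, log2 fold change 2.95 ± 0.50 (SE), adjusted p = 0.0011, and was the 1 member that was lower with TDZ than with BAR.

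HCT, which carries the coumaroyl group to shikimate before ring hydroxylation, was carried by 1 gene in the 4 week controls. DVH24_031157 made up 85.5% to 96.6% of the summed HCT FPKM there and stood at 557, 1278 and 1372 CPM in the controls, 20.1, 1.59 and 1406 CPM with TDZ and 2.1, 40.0 and 7.68 CPM with BAR. TDZ replicates 1 and 2 were near the BAR libraries, and TDZ replicate 3 was above all controls. The gene fell with BAR, log2 fold change -6.01 ± 1.71 (SE), adjusted p = 0.016, a call lost without BAR replicate 1 or 3 (adjusted p values of 0.061 and 0.065). Against control the difference with TDZ was not called, log2 fold change -1.17 ± 1.39 (SE), adjusted p = 0.57, and without replicate 3 it was, log2 fold change -6.63 ± 1.32 (SE), adjusted p = 0.0008. The short neighbours DVH24_006425 and DVH24_006426 rose with BAR, DVH24_006425 from 1.36, 1.27 and 2.46 CPM to 8.04, 7.83 and 9.29 CPM. DVH24_006425 also rose with TDZ, log2 fold change 1.60 ± 0.48 (SE), adjusted p = 0.023, and DVH24_006426 was not called with TDZ.

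The caffeoylshikimate esterase gene DVH24_027282, which in Arabidopsis is the kind of enzyme that splits the caffeoyl ester of shikimate, was nearly silent in the 4 week controls. It was at 0, 0 and 0.238 CPM there, 18.4, 10.2 and 0.451 CPM with TDZ and 1.11, 0.555 and 0.376 CPM with BAR, while all 9 libraries of 48 hours lay between 15.2 and 23.8 CPM. The controls held 3 counts and the TDZ libraries 655, a ratio of 168 after scaling with an exact 95% interval of 57.4 to 819 that covers counting error only; the adjusted p was 0.0021, and the level in TDZ replicate 3 was close to the controls. A second esterase gene, DVH24_002651, rose with both, log2 fold change 4.27 ± 1.00 (SE), adjusted p = 0.0073 for TDZ and log2 fold change 4.89 ± 1.02 (SE), adjusted p = 0.0032 for BAR.

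CCoAOMT, which methylates the CoA ester, rose in 3 of 5 tested genes with TDZ, beside 16.8% of all genes. DVH24_021657, the most abundant, was at 103, 25.6 and 24.4 CPM in the controls, 145, 129 and 103 CPM with TDZ and 25.5, 38.8 and 34.8 CPM with BAR. Every TDZ library, replicate 3 included, lay above every BAR library, log2 fold change 1.93 ± 0.44 (SE), adjusted p = 0.018, and TDZ was above control with log2 fold change 1.29 ± 0.44 (SE), adjusted p = 0.039. Against BAR the call was lost without TDZ replicate 1, BAR replicate 1 or BAR replicate 3, at adjusted p values of 0.051 to 0.11, and against control without control replicate 2 or 3, TDZ replicate 1 or 2 or BAR replicate 3, at 0.05 to 0.15. DVH24_018073 stood at 0, 0.0606 and 0 CPM in the controls, 29.3, 22.8 and 0.129 CPM with TDZ and 0.233, 0.722 and 0 CPM with BAR, and rose with TDZ against control (adjusted p = 0.0032). Its controls held 1 count and its TDZ libraries 1193, and the exact 95% interval of the ratio, 165 to 36376, covers counting error only. The 95% interval of the fit, which takes in the spread between libraries, was a log2 fold change of 5.54 to 12.99. Its neighbour DVH24_018074 went the other way, at 49.7, 124 and 115 CPM in the controls, 25, 29 and 65.3 CPM with TDZ and 35.9, 26 and 42.8 CPM with BAR, and fell with both cytokinins.

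The reductive steps were mixed. Of 10 tested CCR genes, 1 rose with TDZ, below the 16.8% of all genes, and 5 fell with BAR, beside 12.7%. Without TDZ replicate 3 the CCR calls with TDZ were 1 higher and 3 lower of 11, beside 23.0% and 17.9%. DVH24_009597 stood at 4.64, 1.21 and 0.794 CPM in the controls, 109.8, 24.9 and 21.2 CPM with TDZ and 0.757, 4.77 and 4.67 CPM with BAR, and all 3 TDZ libraries lay above all others of 4 weeks, log2 fold change 4.52 ± 0.84 (SE), adjusted p = 0.003 against control. DVH24_031177 fell with BAR, from 69.1, 29.8 and 30.7 CPM to 4.78, 7.66 and 7.9 CPM, log2 fold change -2.67 ± 0.47 (SE), adjusted p = 0.0013. DVH24_041686 was at 95.7, 90.4 and 94.9 CPM in the controls, 35.1, 28.8 and 97.1 CPM with TDZ and 38.4, 49.5 and 39 CPM with BAR. It fell with BAR, log2 fold change -1.15 ± 0.33 (SE), adjusted p = 0.018 (0.067 and 0.064 without BAR replicate 1 or 3), and with TDZ it was not called with all 3 libraries and fell without replicate 3, log2 fold change -1.55 ± 0.21 (SE), adjusted p = 3e-05.

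CAD genes showed both directions as well. The gene DVH24_020088 stood at 76.6, 80.3 and 60.5 CPM in the 48 hour controls and 0.218, 0.303 and 0.238 CPM in the 4 week controls. At 4 weeks it was at 51.3, 43.9 and 0.129 CPM with TDZ and 18.6, 23 and 20.9 CPM with BAR. All BAR libraries and TDZ replicates 1 and 2 lay far above the controls, and TDZ replicate 3 lay below them. It rose with TDZ, log2 fold change 6.93 ± 1.18 (SE), adjusted p = 0.0024, and with BAR, log2 fold change 6.32 ± 1.16 (SE), adjusted p = 0.0016. DVH24_039914, the most abundant CAD gene by FPKM, fell with BAR from 150.2, 124 and 107 CPM to 17.9, 41.8 and 14.8 CPM, log2 fold change -2.35 ± 0.40 (SE), adjusted p = 0.0011. It stood at 75.1, 46.8 and 141 CPM with TDZ, where it was not called against control with all 3 libraries and fell without replicate 3, log2 fold change -1.06 ± 0.37 (SE), adjusted p = 0.029.

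**Figure D4:**
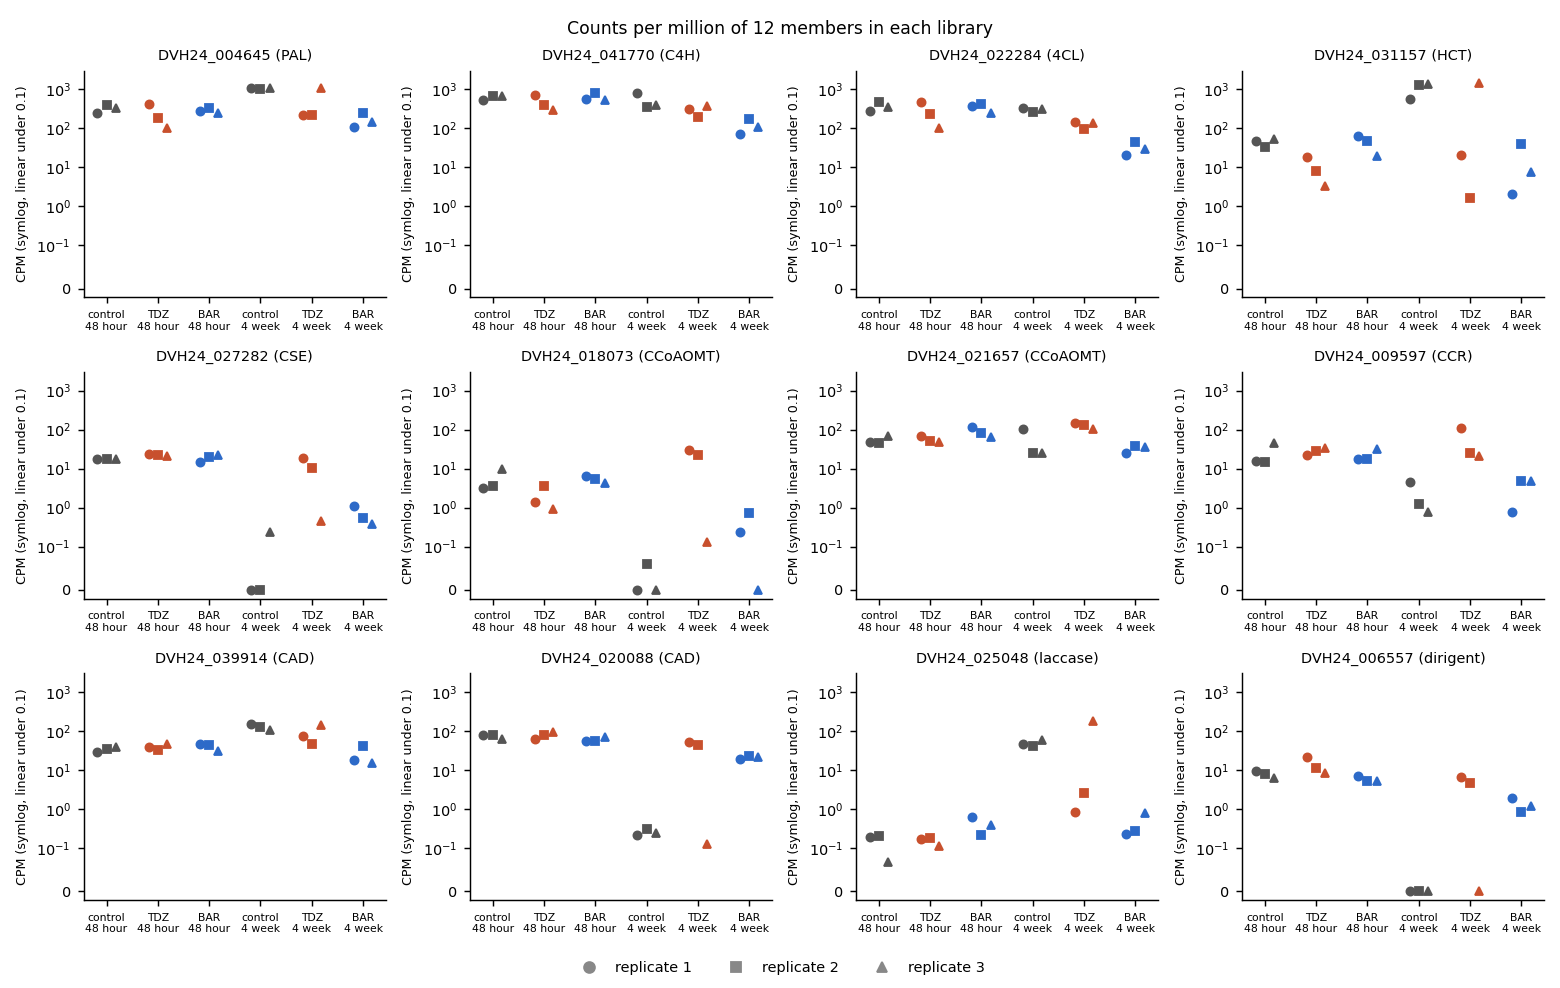
CPM of 12 members in the 18 libraries, 1 panel per gene, on a log axis that is linear under 0.1 CPM. DVH24_027282, DVH24_018073, DVH24_020088 and DVH24_006557 are low in the 4 week controls and in the library labelled TDZ, 4 week, replicate 3, and DVH24_031157 and DVH24_025048 are high in those same libraries.

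Laccases moved in both directions. Of 32 tested laccase genes, 9 rose with TDZ, beside 16.8% of all genes. With BAR 7 rose and 6 fell, beside 17.2% and 12.7%. Without TDZ replicate 3, 15 of 34 rose and 3 fell with TDZ, beside 23.0% and 17.9%. When the 4 week libraries were fitted alone, 0 of 26 laccases were called with TDZ, with 8 at an unadjusted p under 0.05, and 3 were lower and 0 higher with BAR. The share of all genes called in that fit is not given here. The counts differed by name, a split drawn after the values were seen. In Arabidopsis laccases 4, 11 and 17 act in lignification of the stem; of the 16 tested genes with those names, 6 rose with TDZ and 6 with BAR, or 11 with TDZ without replicate 3. Their summed level overlapped between the groups, at 90.1, 70.3 and 70.8 CPM in the controls, 116, 89 and 103 CPM with TDZ and 81.3, 105 and 83.9 CPM with BAR. That sum rests on the laccase-17 genes DVH24_004414 and DVH24_032931. The other 19 genes with those names, tested or not, had a mean of at most 0.655 CPM in the controls. Of the 16 with other names, 3 rose with TDZ, and 1 rose and 6 fell with BAR. Without replicate 3 there were 4 of 18 higher and 3 lower with TDZ.

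The laccase-17 gene DVH24_006031 had no count in the 4 week controls, 1.13, 1.76 and 0 CPM with TDZ and 1.11, 0.278 and 0.967 CPM with BAR. Taking 3 counts over the control group as the floor, it was at least 15.2-fold higher with TDZ and at least 12.4-fold higher with BAR. At 48 hours it stood at 3.35, 3.37 and 4.09 CPM in the controls. The laccase-15 gene DVH24_025048, whose Arabidopsis namesake oxidises seed coat flavonoids, was the reverse, at 0.193, 0.198 and 0.0671 CPM in the 48 hour controls and 47.4, 40.2 and 58.9 CPM in those of 4 weeks. At 4 weeks it stood at 0.859, 2.56 and 183 CPM with TDZ and 0.233, 0.278 and 0.806 CPM with BAR, and fell with BAR, log2 fold change -6.76 ± 1.48 (SE), adjusted p = 0.0041. With TDZ it was not called, log2 fold change 0.34 ± 1.09 (SE), adjusted p = 0.85. Without replicate 3 it fell, log2 fold change -4.82 ± 0.56 (SE), adjusted p = 6.7e-06.

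The neighbouring laccase-15 gene DVH24_025052 was at 162, 178 and 237 CPM in the controls, 24.9, 21.3 and 700.4 CPM with TDZ and 27.8, 26.3 and 26.7 CPM with BAR. TDZ replicates 1 and 2 matched the BAR libraries, and replicate 3 exceeded every control. Its call between TDZ and BAR, log2 fold change 3.21 ± 0.91 (SE), adjusted p = 0.04, rested on that library: without it the log2 fold change was -0.22 ± 0.24 (SE), adjusted p = 0.63. The same call was also lost without any 1 of 10 other libraries, each BAR replicate of 4 weeks among them, at adjusted p values up to 0.16. Against control with TDZ the direction turned too, from a log2 fold change of 0.37, not called, to log2 fold change -3.06 ± 0.27 (SE), adjusted p = 4.5e-07 without replicate 3. The laccase-7 gene DVH24_026649 stood at 8.07, 221 and 278 CPM in the controls, 7.5, 0.42 and 73.4 CPM with TDZ and 0.0583, 0.278 and 0.698 CPM with BAR, and fell with BAR, log2 fold change -8.88 ± 1.94 (SE), adjusted p = 0.0041.

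**Figure D5:**
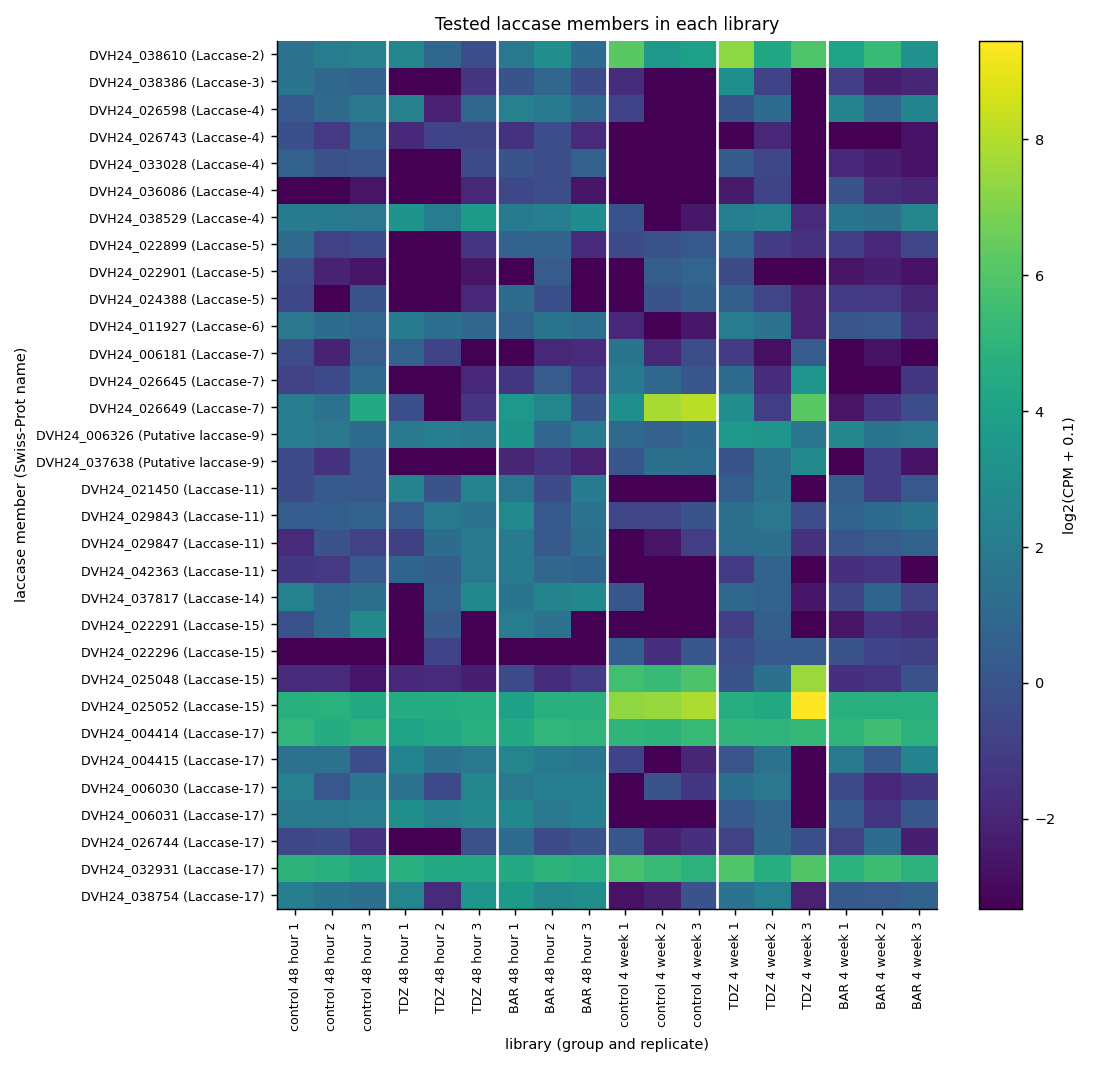
Heat map of log2(CPM + 0.1) of the 32 tested laccase genes (rows) in the 18 libraries (columns, ordered by group). Several genes named laccase-4, laccase-11 and laccase-17 are at or near 0 in the 4 week controls, and several genes with other names are high there and in the library labelled TDZ, 4 week, replicate 3.

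Of 12 tested dirigent genes, 4 rose with TDZ, beside 16.8% of all genes. With BAR 2 rose and 1 fell, near or below the 17.2% and 12.7% of all genes. With the 4 week libraries fitted alone, 0 of 6 were called with TDZ, with 2 at an unadjusted p under 0.05, and 1 was higher and 1 lower with BAR. Of all genes, the share called in that fit is not given here. DVH24_006557 had no count in the 4 week controls or in TDZ replicate 3, 6.55, 4.74 and 0 CPM in the 3 TDZ libraries and 1.86, 0.833 and 1.18 CPM with BAR, at least 59.5-fold and at least 20.4-fold higher than the floor of the controls. DVH24_038057 stood at 0.818, 1.7 and 3.81 CPM in the controls, 23.9, 36.9 and 1.74 CPM with TDZ and 36.8, 17.8 and 16.2 CPM with BAR, log2 fold change 3.33 ± 0.78 (SE), adjusted p = 0.0073 for TDZ and log2 fold change 3.50 ± 0.79 (SE), adjusted p = 0.0048 for BAR. DVH24_024076 fell with BAR, from 4.2, 5.39 and 6.28 CPM to 1.34, 1.33 and 0.967 CPM, log2 fold change -2.12 ± 0.58 (SE), adjusted p = 0.013, or 0.057 without BAR replicate 3.

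Markers of vascular tissue also differed between the media. Beside the counts below, 16.8% of all genes rose and 9.72% fell with TDZ, and 17.2% rose and 12.7% fell with BAR. The summed level of 12 phloem genes was 8.82 to 16.5 CPM in the 4 week controls and 60.9 to 66.1 CPM with BAR. In TDZ replicates 1, 2 and 3 it was 429, 193 and 20.0 CPM. All 12 rose with TDZ and 8 of 12 with BAR. Counts without TDZ replicate 3 are not given for this list or for secondary wall cellulose. The 4 xylem vessel genes summed to 0.0794 to 2.13 CPM in the controls, 0.515 to 19.5 CPM with TDZ and 5.44 to 12.8 CPM with BAR, and 2 rose with TDZ, or 4 without TDZ replicate 3, and 3 with BAR. Of the 8 tested genes of secondary wall cellulose, 6 rose and 1 fell with TDZ, and 5 rose and 1 fell with BAR. Their summed level, in contrast, was 323 to 1687 CPM in the controls, 242 to 291 CPM with TDZ and 267 to 323 CPM with BAR. The gene that fell, the cellulose synthase gene DVH24_017596, stood at 218, 1586 and 1472 CPM in the controls, 59.6, 59.6 and 157 CPM with TDZ and 148, 107 and 130.1 CPM with BAR. Of 12 tested shoot meristem genes, 7 rose with TDZ and 3 with BAR, the latter not far from the 17.2% of all genes. Without TDZ replicate 3, 9 of 13 rose with TDZ, where 23.0% of all genes rose. The part of these tissues in the members' differences was not tested.

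The pathways on either side were described with lists of their own. The ring 3- and 5-hydroxylases, cytochrome P450 enzymes of the same branch, were higher with TDZ than with BAR in 4 of 4 tested genes. Against control, 3 of 4 fell with BAR. Of all genes, 4.42% were higher with TDZ than with BAR and 12.7% fell with BAR. The summed level of the hydroxylases was 157 to 189 CPM in the 4 week controls and 12.5 to 20.2 CPM with BAR. In TDZ replicates 1, 2 and 3 it was 121, 52.5 and 193 CPM. Their count against BAR without TDZ replicate 3 is not given. The shikimate pathway, which supplies phenylalanine, had 14 of 28 tested genes lower and 3 higher with BAR, beside 12.7% and 17.2% of all genes. Its median log2 fold change with BAR was -0.93. With TDZ 5 were lower and 1 higher, beside 9.72% and 16.8%. Leaving out TDZ replicate 3, shikimate calls with TDZ were 13 lower and 2 higher, beside 17.9% and 23.0%. Of 5 tested genes of flavonoid entry, 3 fell with BAR and 1 rose with TDZ, beside 12.7% and 16.8%. Without TDZ replicate 3 a further 3 fell with TDZ, beside 17.9%. Of 5 lignan reductases 1 fell with BAR, beside 12.7% of all genes. Of 10 lignin regulators 2 rose with TDZ and 2 with BAR, which is near the 16.8% and 17.2% of all genes. Without TDZ replicate 3 there were 2 higher and 1 lower with TDZ, beside 23.0% and 17.9%. With BAR that fit called 4 higher. The share of all genes it called for BAR is not given here, so the 4 cannot be set against it.

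Over time, the members' shares of calls in the controls lay near those of all genes. Between 48 hours and 4 weeks without cytokinin, 19 members rose and 25 fell, 17.6% and 23.1%, close to the 15.7% and 21.0% of all genes. With TDZ 26 rose and 1 fell, 24.1% and 0.926%, beside 2871 of the 26053 genes, or 11%, that rose and 9.05% that fell. Without TDZ, 4 week, replicate 3 there were 18 higher and 2 lower of 114, beside 8.19% and 9.15%. With BAR 7 rose and 22 fell with all libraries, beside 10.1% and 11.2%. The median log2 fold change over time was -0.21, 0.69 and -0.82 in that order, beside -0.04, 0.05 and 0.03 for all genes. In the controls the 4CL-like gene DVH24_013067 went from 19.8, 20.3 and 32.1 to 90.1, 210.4 and 240.5 CPM, log2 fold change 2.91 ± 0.47 (SE), adjusted p = 0.00074, and the HCT gene DVH24_031157 from 46.7, 33.8 and 54.4 to 557, 1278 and 1372 CPM, log2 fold change 4.57 ± 1.60 (SE), adjusted p = 0.035. The latter call was lost without any 1 of 5 libraries, control replicates 2 and 3 of 4 weeks and all 48 hour controls, at adjusted p values of 0.067 to 0.11. In the opposite direction, the CAD gene DVH24_020088 fell in the controls with log2 fold change -8.12 ± 1.21 (SE), adjusted p = 0.00058. The 4CL gene DVH24_022284 fell over time with BAR, from 364, 417 and 242 to 20.7, 44.9 and 29.3 CPM, log2 fold change -3.43 ± 0.46 (SE), adjusted p = 0.00023, while in the controls its change over time was not called.

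Whether a cytokinin's difference from control depended on time was tested directly. For TDZ the interaction was called in 10 members, all more positive at 4 weeks, beside 5.44% higher and 2.14% lower of all genes. For BAR it was called in 8 members with a more positive and 15 with a more negative difference at 4 weeks, beside 6.70% and 4.69% of all genes. With TDZ, 4 week, replicate 3 left out, the TDZ interaction was called in 29 members upward and 8 downward, beside 15.9% and 10.8% of all genes. Without control, 4 week, replicate 2 it was called in 0 members, and the share of all genes in that fit is not given here.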

How the data were processed

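Poly(A) RNA of 18 shoot libraries was measured. The authors deposited 1 table of raw read counts per gene, used for every test, and FPKM values per gene, used only for levels. The submitters' processing notes name CASAVA, HISAT2 2.0.5 and featureCounts 1.5.0-p3; no genome build or strand setting is given in the sources used here. FPKM was deposited by the authors on a library total that differs from the table total by 1 constant factor per library. All 18 count columns matched a sample label. Counts were fitted with edgeR 4.0.16 (R 4.3.3, limma 3.58.1), TMM scaling, and the quasi-likelihood test over 6 groups in 1 model. Genes needed a minimum count of 10 and a minimum total of 15 in edgeR's filter, which left 26053. CPM were scaled to the table total times the TMM factor. The SE of a log2 fold change is its size divided by the root of the F statistic. Adjusted p-values are Benjamini-Hochberg over all tested genes, with calls under 0.05. A group with no count was set to a floor of 3 counts over the group, which covers counting error only.

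Groups came from the sample labels. The comparisons were TDZ against control, BAR against control and TDZ against BAR at each time, each medium over time, and each cytokinin's interaction with time. The members and lists were chosen with earlier results of these data known. Members named first were, by rule, the 3 smallest p-values per role among called members whose groups did not overlap, the 10 smallest where no member was called, and the 2 most abundant per role; other members named in the text, and the split of laccases by name, were chosen after their values were seen. Same-numbered libraries did not deviate together (correlations of -0.221 to 0.297, median -0.0248), so replicate numbers were not used as pairs. Alternatives were DESeq2 1.42.0, other normalization and filters, libraries of the same time only, a replicate block, summing the libraries whose names end in b with their namesakes, and leaving out each library. The fits were tested on simulated data. The genes of 1 step of the pathway are not reported here by name, and counts over all members include them.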

Additional observations from a re-analysis of the deposited data

Results flagged for a closer look

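Some members' difference from control was not the same at 48 hours and at 4 weeks, by the interaction term of edgeR's quasi-likelihood fit (adjusted p under 0.05). The values are the log2 difference at 4 weeks minus that at 48 hours, and a value for a gene with no count in a group depends on the small count the fit adds. With TDZ the term was positive in all 10 called members. For the C4H gene it was 7.62 for DVH24_038339. Among CSE members the value was 6.68 for DVH24_027282. The CCoAOMT genes had 2.3 for DVH24_018071 and 10.76 for DVH24_018073. For the CCR gene it was 4.37 for DVH24_009597. Among CAD members the value was 6.85 for DVH24_020088. The laccase genes had 8.58 for DVH24_033028, 7.25 for DVH24_037638 and 9.33 for DVH24_038386. For the dirigent gene it was 8.25 for DVH24_006557. In 7 of these 10, DVH24_006557, DVH24_018073, DVH24_020088, DVH24_027282, DVH24_033028, DVH24_038386 and DVH24_009597, the 4 week controls lay below the 48 hour controls in every library.

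With BAR the term was called in 23 members. For the PAL genes it was -2.23 for DVH24_005247, -2.3 for DVH24_023938, 1.69 for DVH24_038885 and 1.33 for DVH24_038886. Among C4H members the value was -2.91 for DVH24_038336, -4.57 for DVH24_038338 and -2.09 for DVH24_041770. The 4CL genes had -3.13 for DVH24_022284, -3.15 for DVH24_025057 and -3.12 for DVH24_031118. For the 4CL-like gene it was 3.41 for DVH24_041015. Among HCT members the value was 2.69 for DVH24_006425 and -2.87 for DVH24_031156. The CSE gene had 4.24 for DVH24_002651. For the CCR genes it was -3.24 for DVH24_000043 and -2.89 for DVH24_031177. Among CAD members the value was 6.62 for DVH24_020088 and -2.57 for DVH24_039914. The laccase genes had 6.38 for DVH24_006031, -8.15 for DVH24_025048 and -8.16 for DVH24_026649. For the dirigent genes it was 7.91 for DVH24_006557 and -2.63 for DVH24_024076. Of the 15 negative values, 8 belong to PAL, C4H and 4CL genes and 7 to HCT, CCR, CAD, laccase and dirigent genes, and 2 of the 4 PAL values are positive.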

How the results depend on the processing

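No called result changed direction except that of the laccase gene DVH24_025052, and a further 2 uncalled values did. Without the library labelled TDZ, 4 week, replicate 3, DVH24_025052 turned to -0.22 (log2) for TDZ against BAR at 4 weeks and -0.06 for TDZ over time, where leaving out other libraries gave up to 3.75 and 3.91. For TDZ against control at 4 weeks, leaving out 1 library gave -3.06 to 0.91 for DVH24_025052 and -4.82 to 0.92 for DVH24_025048; with a replicate block these were -0.17 and -1.05, and with each b library added to its namesake -0.28 and -0.35. The cause was not tested beyond that library. Over 244 called and 38 uncalled values and all alternatives, 5586 recomputed values kept direction and side of the threshold, 1015 lost the call, 9 gained it and 8 reversed. Counts of called members moved by over 1.5 times as follows. DESeq2 gave 2 for TDZ against control and 1 for TDZ against BAR at 48 hours, where edgeR gave 0, and 22 for the TDZ interaction, where edgeR gave 10. Libraries of the same time only, a fit with fewer libraries and its own filter, tested 95 members at 4 weeks. It gave 4 for TDZ against control, 27 for BAR against control and 2 for TDZ against BAR at 4 weeks, in place of 38, 45 and 28. Summing the b libraries gave 15 for TDZ against BAR at 4 weeks and 17 for the TDZ interaction. The replicate block gave 4 for the TDZ interaction; its numbers do not pair the libraries. Leaving out 1 library at a time gave 0 calls in each comparison at 48 hours. At 4 weeks it gave 14 (without control replicate 2) to 59 (without TDZ replicate 3) for TDZ against control, 28 (without BAR replicate 1) to 50 for BAR against control and 2 (without BAR replicate 1) to 36 for TDZ against BAR. Over time it gave 28 (without control, 4 week, replicate 2) to 51 in the controls, 13 (without TDZ, 48 hour, replicate 2) to 34 with TDZ and 10 (without BAR, 4 week, replicate 1) to 40 with BAR. For the interactions it gave 0 (without control, 4 week, replicate 2) to 37 for TDZ and 9 (without BAR, 4 week, replicate 1) to 35 for BAR. Apart from TDZ comparisons without TDZ, 4 week, replicate 3, the shares of all genes called under these alternatives are not given here. Such counts therefore do not set the members apart from other genes. With 3 libraries a group, and levels near the filter for many laccases and dirigent genes, small differences could not be detected.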
